A study of Drosophila melanogaster with 2 samples.

Results

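Entries at the starts of noncoding RNA genes were examined in a ChIP-seq map of ZIPIC (CG7928), an architectural protein of flies that binds DNA through zinc fingers and recruits the insulator cofactor CP190. Chromatin came from whole Drosophila melanogaster embryos of both sexes, pooled, aged 0 to 24 h. They belonged to a transgenic line that stably expresses CG7928 with GFP at the C terminus, and an anti-GFP antibody was used for precipitation after sonication (size range 200 to 800, unit not given in the labels). The 2 samples were biological replicates of this 1 group, numbered 2 and 3, so no condition could be compared with another, and no precipitation from embryos without the fusion was used here. The labels name neither the promoter that drives the fusion nor the cells that express it, and a whole-embryo sample averages over all of them.

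An entry is 1 interval in the authors' list of peaks and weaker background regions called on the pooled replicates (dm6 genome build). An entry was taken when its summit, the position of highest signal, lay within 500 bp of a start of an annotated noncoding RNA gene and more than 500 bp from every protein-coding transcript start. This rule found 637 of 30000 entries (2.12%). Of these, 59 were also in the authors' optimal list, which holds 2971 peaks, and 578 were not. The optimal list consisted of exactly the 2971 strongest entries of the pooled list by the authors' signal value. That value is a score with no stated scale. "Optimal" therefore means above a signal threshold, and the signal itself was described but not tested between optimal and other entries.

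The noncoding RNA class of the Ensembl annotation is mixed. Long noncoding RNAs (lncRNAs) are long transcripts without a recognised protein product, and antisense RNAs (asRNAs) are transcribed from the strand opposite to another gene. Some lncRNAs are well studied in flies: roX1 and roX2 coat the male X chromosome together with the MSL dosage compensation proteins, and Hsromega is a heat shock RNA. Uhg genes host small nucleolar RNAs in their introns. Most of the others are known only by a CR number and have no role stated here. Of the 637 entries, 491 lay nearest to a lncRNA start, 90 to an asRNA start, 45 to a microRNA gene or its mature arm and 11 to other noncoding genes. A microRNA's annotated end is produced by processing of a longer transcript, so it is not a transcription start.

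The 100 bp around the summits of 8 strong optimal entries and 2 other entries are shown so that the sites can be read beside the values that follow. They are the plus strand of dm6, read from the RefSeq genome sequence, each written 5′ to 3′. Capitals mark a match, on either strand, to CAGGGCTG (up to 1 mismatch) or to AGGGNTG, to the string CGATA or its longer form TATCGATA, or to the promoter string GGTCACACT. The 2 entries outside the optimal list stand last.
asRNA:CR45865 (chr3L:16613063-16613162): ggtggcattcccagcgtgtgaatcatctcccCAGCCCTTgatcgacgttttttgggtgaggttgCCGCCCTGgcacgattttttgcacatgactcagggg
lncRNA:CR31044 (chr3R:29214392-29214491): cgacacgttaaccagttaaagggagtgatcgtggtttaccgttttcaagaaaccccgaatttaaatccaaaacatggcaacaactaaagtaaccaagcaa
lncRNA:CR31840 (chr2L:14024036-14024135): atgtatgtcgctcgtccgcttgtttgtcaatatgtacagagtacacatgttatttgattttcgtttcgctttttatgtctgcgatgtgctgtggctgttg
asRNA:CR44429 (chrX:15298443-15298542): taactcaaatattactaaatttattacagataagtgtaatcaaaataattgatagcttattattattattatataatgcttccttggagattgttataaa
lncRNA:roX2 (chrX:11579020-11579119): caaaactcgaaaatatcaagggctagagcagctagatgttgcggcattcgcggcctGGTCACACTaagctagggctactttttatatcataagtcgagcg
lncRNA:CR46036 (chr3R:17700483-17700582): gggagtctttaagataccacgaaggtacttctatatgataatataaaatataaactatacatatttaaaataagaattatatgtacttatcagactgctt
lncRNA:CR45541 (chrX:9583834-9583933): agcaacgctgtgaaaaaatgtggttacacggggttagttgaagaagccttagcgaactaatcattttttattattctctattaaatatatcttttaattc
lncRNA:roX1 (chrX:3862516-3862615): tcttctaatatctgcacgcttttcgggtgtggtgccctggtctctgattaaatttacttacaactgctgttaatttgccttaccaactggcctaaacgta
lncRNA:CR44620 (chrX:13390522-13390621): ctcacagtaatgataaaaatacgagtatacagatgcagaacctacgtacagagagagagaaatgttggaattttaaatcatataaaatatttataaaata
lncRNA:CR45433 (chr3L:19861277-19861376): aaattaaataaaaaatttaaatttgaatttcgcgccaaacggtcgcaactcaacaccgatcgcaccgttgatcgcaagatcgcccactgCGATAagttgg

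Entries at noncoding starts reached the optimal list more often than distal entries and less often than entries at protein-coding starts. Of the noncoding-start entries, 9.26% were optimal (59 of 637, 95% interval 7.13 to 11.8%). Over all candidate entries the share was 9.9%. Among distal entries, whose summits lay more than 500 bp from both kinds of start, 4.37% were optimal (946 of 21657, 4.10 to 4.65%), which was 4.89 percentage points lower than at noncoding starts (odds ratio 2.23, Fisher's exact test, adjusted exact p = 2.57e-07). The higher share did not end at the 500 bp limit. Of the distal entries 501 to 600 bp from a noncoding start, 10.1% were optimal (13 of 129). Whether these differ from other distal entries was not tested. At protein-coding starts the share was 25.5% (1966 of 7706, 24.5 to 26.5%), and the noncoding share lay 16.3 points below it (odds ratio 0.298, adjusted exact p = 3.99e-23). Tests were two-sided and adjusted by Benjamini-Hochberg over 3 comparisons. Intervals are exact Clopper-Pearson 95% intervals over entries, and they cover counting error only. The lists carry no read counts, so the depth of each sample is unknown.

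**Figure D1:**
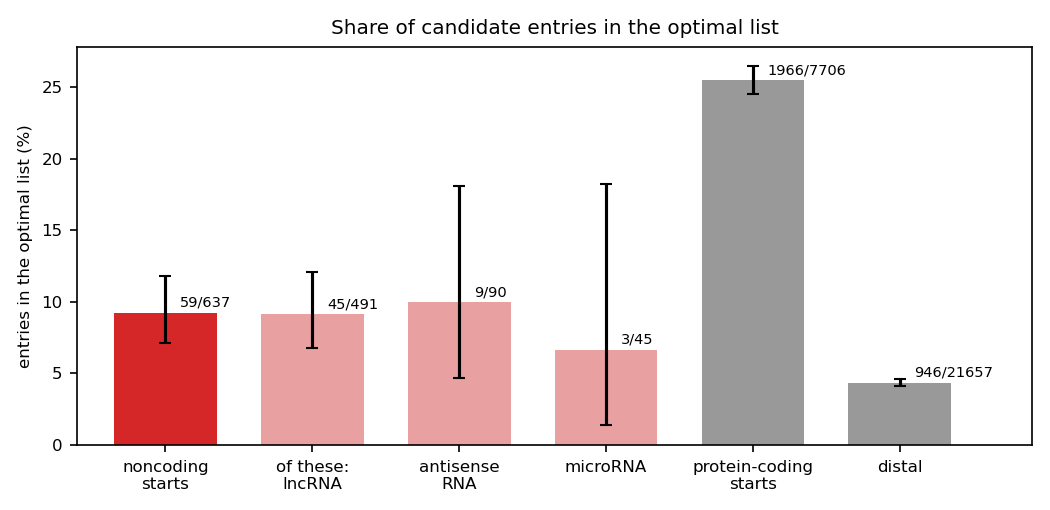
Share of candidate entries that were in the optimal list (y axis, percent) for entries at noncoding RNA starts, for 3 kinds of noncoding gene among them, for entries at protein-coding starts and for distal entries; error bars are exact 95% binomial intervals and the printed counts are optimal over all entries. Noncoding starts (9.26%) lie between protein-coding starts (25.5%) and distal entries (4.37%), and the intervals of lncRNA, asRNA and microRNA entries overlap.

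The difference from distal entries was also computed within classes of distance to the nearest protein-coding start, a comparison chosen after seeing the data. More than 1000 bp from a coding start, 8.68% of noncoding-start entries (46 of 530) and 3.86% of distal entries (726 of 18822) were optimal (adjusted exact p = 3.11e-06 over 4 added comparisons, Fisher's exact test). At 501 to 1000 bp the shares were 12.1% (13 of 107) and 7.76% (220 of 2835), a difference that did not pass (adjusted exact p = 0.135). The replicates' own lists gave the same order. Among noncoding-start entries, 11.3% in replicate 2 (72 of 638) and 9.12% in replicate 3 (57 of 625) were within that replicate's 2971 strongest, a mean of 10.2% ± 1.53 (SD, n = 2). For distal entries the shares were 5.45% in replicate 2 and 3.81% in replicate 3. Entries are not independent replicates, and 637 entries had 542 distinct nearest genes.

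Counted by gene, few noncoding RNA genes carried an optimal peak that lay more than 500 bp from every coding start. Of 2766 noncoding genes with a start more than 500 bp from every coding start, 59 (2.13%, 95% interval 1.63 to 2.74%) had one. An optimal peak lay within 500 bp of a start for 18.3% of protein-coding genes, but no peak was left out of that count. For noncoding genes, 67 optimal entries within 500 bp of both kinds of start were left out. In addition, 24.0% of the 2766 are microRNA genes (664). The share was 1.83% for asRNA genes (6 of 328) and 2.53% for lncRNA genes (43 of 1697), a difference that did not pass the test (Fisher's exact test, p = 0.558). The 6 asRNA genes are fewer than the 9 nearest to an optimal entry, because the other 3 have no start that far from a coding start and were not counted here. Any noncoding-start entry, optimal or not, was found at 20.7% of these asRNA genes (68 of 328) and 24.9% of these lncRNA genes (422 of 1697).

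The optimal noncoding-start peaks were of moderate strength. Their pooled signal ran from 130.6 to 1037 with a median of 182.9, against 34.5 to 126.0 with a median of 47.5 for the 578 other entries; the absence of overlap follows from the threshold. The median was 233.1 for optimal coding-start peaks and 178.1 for optimal distal peaks. None of the 59 was among the 297 strongest optimal peaks (upper exact limit 6.06%), where 275 coding-start peaks and 22 distal peaks stood. Among the 1485 strongest optimal peaks were 39.0% of the noncoding-start peaks (23 of 59), 56.2% of the coding-start peaks (1104 of 1966) and 37.8% of the distal peaks (358 of 946). The noncoding share was below the coding share (adjusted exact p = 0.0221, Fisher's exact test, chosen after seeing the data) and did not differ detectably from the distal share (adjusted exact p = 0.890).

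The best characterised RNAs among the optimal members were the dosage compensation RNAs. At roX2 the summit lay 5 bp downstream of the start, in the first transcribed bases (chrX:11579065-11580432, plus strand), the closest to a start of all 59. Its pooled signal was 451.4 and its signal in replicate 3 was 280.2. No entry of replicate 2 held this summit, and the nearest summit of replicate 2 lay 1473 bp away, with a signal of 873.6. The nearest protein-coding start was that of nod, which encodes a kinesin-like protein, 1702 bp from the summit. The window shown above for roX2 is the single optimal noncoding-start window that holds GGTCACACT, a core promoter string known as the binding site of M1BP. That string was in 1.69% of optimal noncoding-start windows (1 of 59), 2.03% of optimal coding-start windows (40 of 1966) and 0.52% of all 30000 candidate windows.

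At roX1 (chrX:3857230-3862697, minus strand) the summit lay 131 bp downstream of a start, in a noncoding exon. The pooled signal was 347.2, with 162.2 in replicate 2 and 176.8 in replicate 3. The roX1 gene overlaps ec on the opposite strand. The ec gene encodes echinus, a ubiquitin-specific protease involved in eye development. Both roX genes were thus in the optimal list, with roX1 listed in both replicates and roX2 in replicate 3 alone.

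Other known noncoding RNAs were looked up by name whatever their signal, and only some were in the optimal list. The heat shock RNA Hsromega had an optimal peak 147 bp downstream of a start (pooled signal 183.6). Its signal was 132.4 in replicate 2 and 45.0 in replicate 3, where it ranked 6710. Uhg4, a host gene of small nucleolar RNAs, had an optimal peak 61 bp upstream of its start (pooled signal 344.7, 161.6 in replicate 3, no entry in replicate 2). Uhg4 overlaps Ctu1, a tRNA thiolation enzyme gene, on the opposite strand, and the start of the coding gene Boot lay 554 bp from the summit.

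Below the optimal threshold were RNaseMRP:RNA, the RNA of a ribosomal RNA processing enzyme (pooled signal 109.5), flam, the master piRNA locus that silences gypsy-type elements in the ovary (93.5), yar (64.3), the host genes Uhg1 (62.9) and Uhg3 (34.6), and iab8 of the bithorax complex (35.5). The host genes Uhg2, Uhg5 and Uhg8 had entries that were also within 500 bp of a coding start and so were not members. Of these, the Uhg2 entry was optimal (214.9). No candidate entry lay within 500 bp of a start of bxd, iab4, noe, let7C, cherub, CRG, sphinx, RNaseP:RNA, Uhg7 or either copy of 7SL RNA, the RNA of the signal recognition particle. This says only that the pooled list holds no entry there.

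Antisense RNA starts held 9 of the 59 optimal entries, and 4 of the 25 strongest. Their share was similar in both lists, 15.3% of optimal and 14.0% of other noncoding-start entries. The strongest of all noncoding-start entries lay 286 bp upstream of asRNA:CR45865 (chr3L:16612930-16613306, pooled signal 1037), in the intergenic space beside CG4101, which this RNA overlaps on the opposite strand. Its signal was 453.8 in replicate 2 and 596.4 in replicate 3. The start of CG4101 lay 627 bp from the summit. The peak of asRNA:CR44429 (pooled 523.7, replicates 265.8 and 257.3) fell in an intron of gce, which encodes a juvenile hormone receptor. Its summit lay 516 bp from a start of gce, the shortest distance to a coding start among the optimal members.

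The third antisense peak, asRNA:CR45714 (pooled 315.4, replicates 118.0 and 217.8), had its summit 41 bp upstream of the RNA's start and in the 3′ UTR of Hayan, a serine protease gene of the melanisation response. The summit lay 544 bp from the start of CG32547. At asRNA:CR45908 (pooled 282.5, replicate 3 128.8, no entry in replicate 2) the summit lay in an intron of CG1943, which the RNA overlaps on the opposite strand. Of the other antisense members, asRNA:CR45281 overlaps the alkaline phosphatase gene Alp6 and the odorant receptor gene Or45b, asRNA:CR45999 overlaps CG9855, asRNA:CR45136 overlaps CG30015 with its summit in that gene's 5′ UTR, and asRNA:CR43469 overlaps the beta-alanine transporter gene Balat. asRNA:CR46194 overlaps SmD3, a core spliceosome protein gene, on the opposite strand and Oda, the ornithine decarboxylase antizyme gene, on its own strand. The pooled signals of these 5 ran from 138.9 to 197.0.

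Many lncRNAs also lay within or across protein-coding genes. Counting all 59 optimal entries, 23 had a nearest noncoding gene that overlaps a coding gene on the opposite strand, 9 on the same strand and 28 overlap none. The largest peak at a lncRNA in or across a coding gene lay 208 bp upstream of lncRNA:CR46036 (pooled 385.9, replicates 172.9 and 227.5). It fell in an intron of osa, which encodes a subunit of the Brahma chromatin remodelling complex. The coding start nearest to it, that of CG31249, was 13462 bp away. The peak of lncRNA:CR45325 (pooled 269.5, replicates 190.9 and 80.0) lay in an intron shared by CG46429 and Sesn, the sestrin gene, a stress-induced inhibitor of TOR signalling. lncRNA:CR46102 (pooled 199.6, replicates 114.1 and 83.8) overlaps the lipophorin receptor gene LpR2, and lncRNA:CR45668 (pooled 244.5, replicates 152.3 and 88.0) overlaps CG16721, with Act5C, a cytoplasmic actin gene, 649 bp from the summit.

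Neighbouring RNAs shared beat-Ib, a gene for a cell-surface protein of the Beaten path family: peaks in its introns lay upstream of lncRNA:CR44868 (pooled 202.0, replicates 62.9 and 137.8) and lncRNA:CR44867 (pooled 182.6, replicates 54.4 and 128.9). Both had a higher score in replicate 3 than in replicate 2, though the scores of the 2 lists share no stated scale. Their ranks within each list were 1076 and 1174 in replicate 3, and 2534 and 3195 in replicate 2. Further lncRNAs antisense to coding genes were CR44331 in puc, the JNK phosphatase gene, CR43918 in Dp, the partner of E2F, CR44478 in Socs36E, a JAK/STAT inhibitor gene, CR45888 in dlp, a glypican gene, CR43411 in osp and CR45531 in CG14434. On the same strand were CR45997 with mbl, a splicing regulator gene, CR45808 with Hipk, a kinase gene, CR43399 with ena, an actin regulator gene, CR46265 with ChAT, which makes the enzyme of acetylcholine synthesis, and CR44757 with CG13506. The pooled signals of these 11 ran from 133.8 to 186.0.

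Other strong peaks lay at lncRNAs that overlap no coding gene. lncRNA:CR31044 ranked next to the top (chr3R:29214281-29214585, 120 bp upstream of its start, pooled 862.7, replicates 520.2 and 335.0), with eEF1gamma as the nearest coding gene at 5730 bp. lncRNA:CR31840 followed (pooled 818.2, replicates 399.1 and 394.1), 13 bp downstream of its start. lncRNA:CR44339 on 2R (pooled 655.6, replicate 3 276.4) had no entry in replicate 2, whose nearest summit was 20234 bp away. The nearest coding start to it was that of Psc, a Polycomb group gene, at 4184 bp.

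lncRNA:CR43626 (pooled 373.8, replicates 226.3 and 116.5) and lncRNA:CR45541 (pooled 358.6, replicates 174.8 and 173.0) were of similar strength to the roX1 peak. lncRNA:CR42657 (pooled 337.1, replicate 3 156.0) had no entry in replicate 2 and lay 701 bp from the start of nej, which encodes the acetyltransferase CBP. lncRNA:CR44676, CR44810, CR44917 and CR46352 had pooled signals of 299.8, 259.4, 241.3 and 221.9. All 4 had higher scores in replicate 2 (218.3, 167.2, 157.7 and 150.4) than in replicate 3 (94.4, 81.4, 78.4 and 78.3). The scores of the 2 lists share no stated scale. By rank within each list they stood at 676, 860, 907 and 955 in replicate 2. In replicate 3 the ranks were 1877, 2434, 2581 and 2584.

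Peaks came in pairs at 2 lncRNAs. At lncRNA:CR45251 a peak lay on each side of the gene (pooled 218.2 at 427 bp downstream of the start and 216.9 at 285 bp upstream), with replicate signals of 139.4 and 87.4 for the one and 138.0 and 76.7 for the other. The downstream summit lay past the far end of this short gene, in intergenic sequence. At lncRNA:CR45352 both lay upstream, at 281 bp (pooled 256.7, replicates 97.6 and 163.3) and 495 bp (pooled 142.7, replicates 39.1 and 80.6). The 59 peaks thus belonged to 57 distinct nearest genes. By class they were 45 lncRNA entries, 9 asRNA entries, 3 microRNA entries and 2 others. The microRNA entries lay at mir-9378, within CG17124 (pooled 184.7), at the mature arm of mir-9377, within Tis11 (170.2), and at mir-275 (149.8). Tis11 encodes a protein that promotes decay of AU-rich mRNAs. The others were Uhg4 and snoRNA:Or-ACA9, within AdamTS-A, a secreted metalloprotease gene (132.2).

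**Figure D2:**
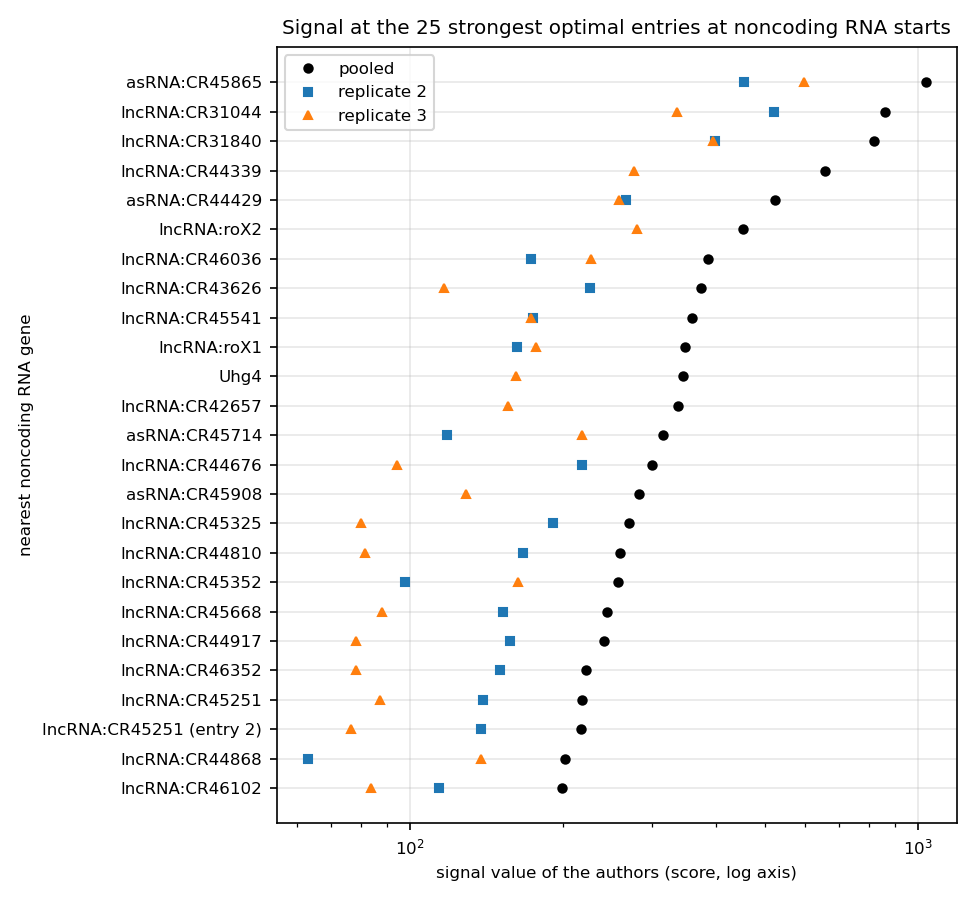
Signal value of the authors (x axis, score, log scale) at the 25 strongest optimal entries at noncoding RNA starts, each named by its nearest noncoding gene (y axis), in the pooled list and in the replicate entry that holds the summit; a missing marker means that no entry of that replicate holds it. Pooled signals run from 1037 at asRNA:CR45865 to 199.6 at lncRNA:CR46102, and 5 entries have no marker for replicate 2.

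The threshold fell between close values. The weakest optimal members were lncRNA:CR45888 (138.4), lncRNA:CR46265 (133.8), lncRNA:CR42794 (132.6), snoRNA:Or-ACA9 (132.2) and lncRNA:CR45472 (130.6). The strongest entries outside the optimal list were asRNA:CR46058, in the 3′ UTR of CG6125 (126.0), lncRNA:CR44828 (124.3), lncRNA:CR44620 (123.1), asRNA:CR46044, in an intron of Septin2 (121.6), and lncRNA:CR44651 (121.5). The distance limits had the same property. With a noncoding start within 500 bp, 3 of 23 entries whose nearest coding start was 501 to 600 bp away were optimal, and so were 4 of 29 at 401 to 500 bp, which the rule leaves out. With no coding start within 500 bp, 12 of 118 entries at 401 to 500 bp from a noncoding start were optimal, and so were 13 of 129 at 501 to 600 bp, which the rule counts as distal.

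The replicates held most of the optimal noncoding-start peaks, though not always at similar strength. Replicate 2 listed 51 of the 59 summits and replicate 3 listed 58, against 344 and 305 of the 578 other entries. This contrast is not independent of the threshold, which was set on signal pooled from the same 2 replicates. Both replicates listed 84.7% of the optimal noncoding-start peaks (50 of 59). The shares were 74.1% for optimal coding-start peaks (1457 of 1966) and 87.6% for optimal distal peaks (829 of 946). The 8 without an entry in replicate 2 were lncRNA:CR44339, roX2, Uhg4, lncRNA:CR42657, asRNA:CR45908, asRNA:CR45281, lncRNA:CR43918 and lncRNA:Vinr, and the 1 without an entry in replicate 3 was lncRNA:CR43411. Over the 50 peaks listed in both, log2 signal had a Spearman's rho of 0.34 and a Pearson's r of 0.63 between replicates. Over the 137 other entries listed in both, rho was 0.32 and r was 0.30. Over all 187 together, which the threshold splits into a stronger and a weaker group, rho was 0.65 and r was 0.75. These correlations are across entries of 1 pair of libraries and are given as a description.

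**Figure D3:**
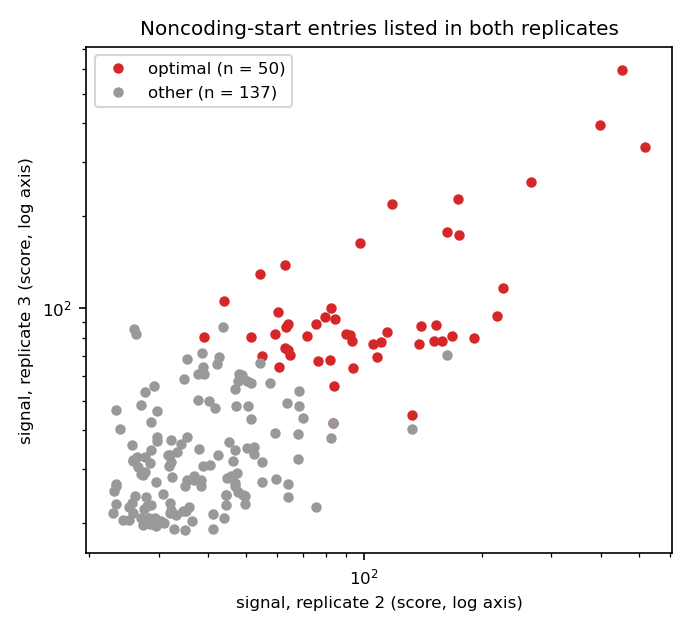
Signal of noncoding-start entries in replicate 2 (x axis) and replicate 3 (y axis), both the authors' score on log scales, for the 50 optimal and 137 other entries that both replicates list; each point is 1 entry. Optimal entries lie towards the upper right, and among them the replicate signals range from 39.1 to 520.2 in replicate 2 and from 42.2 to 596.4 in replicate 3 over all optimal entries listed there.

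A peak was counted as found in a replicate when 1 of that replicate's 2971 strongest entries held its summit. Of the optimal noncoding-start peaks, 62.7% were found in both replicates (37 of 59, 95% interval 49.1 to 75.0%), against 60.0% of the optimal coding-start peaks (1180 of 1966, 57.8 to 62.2%). Over all optimal peaks the share was 58.5%. The difference did not pass (adjusted exact p = 0.788, Fisher's exact test). Among the 1485 strongest optimal peaks 78.3% of noncoding-start peaks (18 of 23) and 85.1% of coding-start peaks (940 of 1104) were found in both (adjusted exact p = 0.372). Among the 1486 weakest, a comparison chosen after seeing the data, the shares were 52.8% (19 of 36) and 27.8% (240 of 862, adjusted exact p = 0.00224). Whether the differences in the stronger and weaker peaks differ from each other was not tested. Replicate 3's 2971 strongest entries held 79.7% of optimal noncoding-start summits (47 of 59) and 87.8% of coding-start summits (1726 of 1966, adjusted exact p = 0.0708). Replicate 2's held 79.7% (47 of 59) and 68.2% (1340 of 1966, adjusted exact p = 0.0649, Fisher's exact test). The share found in both replicates thus joins differences of opposite sign.

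Optimal summits lay more often upstream of the nearest noncoding start than other summits, without passing the test. That start can be an internal one, so upstream does not always mean outside the gene. The summits of lncRNA:CR43626 and lncRNA:CR44810 counted as upstream and lay within these genes, in a noncoding exon. Upstream of the start were 67.8% of optimal summits (40 of 59) and 53.1% of other summits (307 of 578; unadjusted exact p = 0.0389, adjusted exact p = 0.156 over 8 comparisons of position, Fisher's exact test). Within 100 bp of the start were 15.3% of optimal (9 of 59) and 21.6% of other summits (125 of 578, adjusted exact p = 0.504). The median distance to the start was 223 bp for optimal and 242.5 bp for other summits. Widths ran from 109 to 468 bp for optimal entries, and each of the other entries was 410 bp wide.

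**Figure D4:**
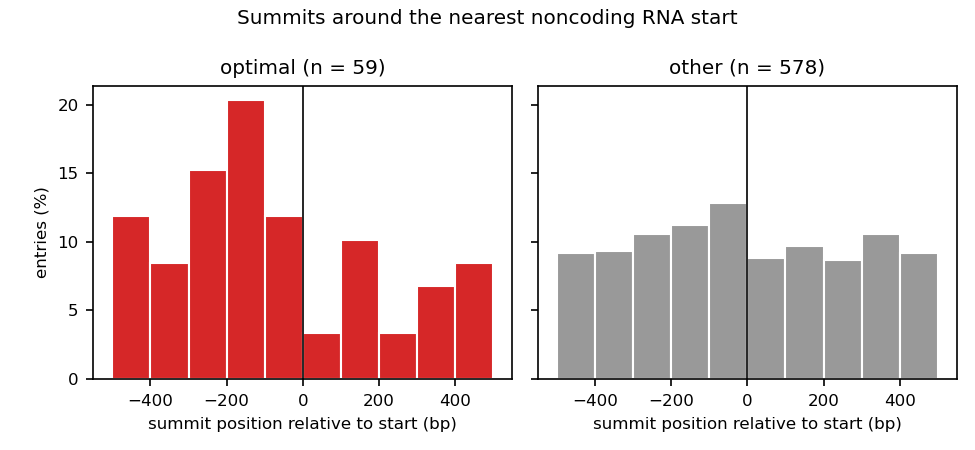
Position of the summit relative to the nearest noncoding RNA start (x axis, bp, negative values upstream) as a percentage of entries (y axis), for 59 optimal entries on the left and 578 other entries on the right, in bins of 100 bp. Of the optimal summits 67.8% lie upstream of the start, against 53.1% of the other summits.

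None of the comparisons of surrounding gene structure passed. An asRNA start was nearest for 90 entries, of which 10% were optimal, against 9.14% of the 547 entries at other noncoding starts (adjusted exact p = 0.844). Inside a protein-coding gene body 9.96% of entries were optimal (24 of 241), and outside 8.84% (35 of 396, adjusted exact p = 0.770). Where the noncoding gene overlaps a coding gene on the opposite strand the share was 11.2% (23 of 205), and elsewhere 8.33% (36 of 432, adjusted exact p = 0.504). A coding start stood 501 to 1000 bp away for 22.0% of optimal (13 of 59) and 16.3% of other entries (94 of 578, adjusted exact p = 0.504). Another noncoding or small RNA gene start within 500 bp was found for 3.39% of optimal (2 of 59) and 6.23% of other entries (36 of 578, adjusted exact p = 0.754).

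By annotation the 59 optimal summits lay in intergenic sequence in 22 cases, in introns of coding genes in 19, in noncoding exons in 16, and in a 5′ UTR and a 3′ UTR in 1 case each. No optimal summit lay in coding sequence, where 3.98% of the other summits lay. At that share only a few of 59 summits would lie there, and the difference was not tested. The 578 other summits were intergenic in 181 cases, in introns of coding genes in 111, in noncoding exons in 221, in coding sequence in 23, in 3′ UTRs in 24, in 5′ UTRs in 2 and in introns of noncoding genes in 16.

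The X chromosome held 22.0% of the optimal noncoding-start entries (13 of 59) and 10.4% of the others (60 of 578). This difference passed before adjustment (exact p = 0.0157) and not after it (adjusted exact p = 0.126, Fisher's exact test). It passed in 2 of 13 alternatives: with a limit of 1000 bp to a start (24.7% against 9.60%, adjusted exact p = 0.00177) and in replicate 2's own list (19.4% against 7.24%, adjusted exact p = 0.0207). It did not pass in replicate 3's own list (22.8% against 12.7%, adjusted exact p = 0.286), with a limit of 250 bp (20.6% against 11.9%, adjusted exact p = 0.550) or in the other alternatives, and the optimal share was the higher in all 13. Among these, taking every transcript start of a coding gene, or only the main chromosome arms, left the X counts unchanged. A similar contrast stood among distal entries, where 21.1% of optimal and 12.8% of other entries were on X, while at coding starts the shares were 16.1% and 15.2%. Whether the noncoding and distal contrasts differ was not tested. The X-linked optimal members included roX1, roX2, asRNA:CR44429, asRNA:CR45714, lncRNA:CR45541, lncRNA:CR42657, lncRNA:CR45668 and lncRNA:CR46243. The remaining optimal entries were on 2L (12), 2R (16), 3L (7) and 3R (11).

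Base composition is given as a description. The median share of G and C in the 100 bp around the summit was 34% for optimal (quartiles 29 and 40%) and 41% for other noncoding-start entries (35 and 48%). Distal entries had the same medians, 34% for optimal and 41% for other entries, and coding-start entries had medians of 38% and 41%. The lowest value among optimal members was 19%, at asRNA:CR44429, and the highest 56%, at asRNA:CR45865, as the printed windows show.

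Short sequence strings were then counted on both strands of these 100 bp windows. Strings associated with ZIPIC (CAGGGCTG and its shorter form AGGGNTG, which overlap) and with the insulator protein BEAF-32 (CGATA) were less frequent at optimal noncoding-start peaks than at optimal coding-start peaks. CAGGGCTG also led an earlier search of the same peak list, so its presence at peaks is not independent of these data. That list was 66.2% coding-start peaks (1966 of 2971) and 1.99% noncoding-start peaks (59). Comparing the 2 kinds for CAGGGCTG, or for AGGGNTG, is therefore not independent of that search either. CAGGGCTG was in 0 of 59 noncoding-start windows (upper exact limit 6.06%) and 190 of 1966 coding-start windows (9.66%, adjusted exact p = 0.0142 over 11 strings, Fisher's exact test). With up to 1 mismatch it was in 5.08% (3 of 59) and 25.6% (504 of 1966, adjusted exact p = 0.00101). AGGGNTG was in 6.78% (4 of 59) and 21.9% (430 of 1966, adjusted exact p = 0.0124), and CGATA in 10.2% (6 of 59) and 29.0% (570 of 1966, adjusted exact p = 0.00584). The string TATCGATA, which contains CGATA and is bound by the promoter factor DREF, was in 0 of 59 and in 5.85% of the 1966 windows, a difference that did not pass (adjusted exact p = 0.169). Of all 30000 candidate windows, 1.01% held CAGGGCTG, 5.75% held it with up to 1 mismatch, 4.13% held AGGGNTG and 14.0% held CGATA. With a limit of 250 bp to a start, which left 34 optimal noncoding-start peaks, none of the 4 passed, while each stayed lower than at coding-start peaks. There CGATA was in 11.8% (4 of 34) and 31.3% (530 of 1694), and CAGGGCTG with up to 1 mismatch in 8.82% (3 of 34) and 27.9% (472 of 1694, adjusted exact p = 0.0766 for both). In 50 bp windows 2 of the 4 passed. A match is a run of letters and was not tested as a binding site.

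The same counts were taken among stronger and weaker peaks. Among the 1485 strongest optimal peaks, CAGGGCTG with up to 1 mismatch was in 4.35% of noncoding-start windows (1 of 23) and 38.6% of coding-start windows (426 of 1104, adjusted exact p = 0.00192, Fisher's exact test). AGGGNTG was in 8.70% (2 of 23) and 34.6% (382 of 1104, adjusted exact p = 0.0265), and CGATA in 0 of 23 and 30.3% (335 of 1104, adjusted exact p = 0.00192). CAGGGCTG itself did not pass there (0 of 23 against 181 of 1104, adjusted exact p = 0.105). Among the 1486 weakest peaks none of the 11 strings passed. There CAGGGCTG with up to 1 mismatch was in 5.56% (2 of 36) and 9.05% (78 of 862), AGGGNTG in 5.56% (2 of 36) and 5.57% (48 of 862), and CGATA in 16.7% (6 of 36) and 27.3% (235 of 862).

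The optimal members with CAGGGCTG at up to 1 mismatch were asRNA:CR45865, lncRNA:CR43918 and the farther lncRNA:CR45352 peak, and asRNA:CR45865, whose window is printed above, holds it at 2 places. AGGGNTG was in the windows of asRNA:CR45865, asRNA:CR45714, lncRNA:CR43918 and lncRNA:CR46265. CGATA was in those of Hsromega, lncRNA:CR43411, lncRNA:CR44380, lncRNA:CR44757, lncRNA:CR45472 and the farther lncRNA:CR45352 peak. The printed windows of lncRNA:CR31044, lncRNA:CR31840, roX1 and lncRNA:CR45541 hold none of the 11 strings.

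None of the 11 strings passed between optimal and other noncoding-start entries, or between optimal noncoding-start and optimal distal peaks, and in neither comparison was an unadjusted p below 0.05. AGGGNTG was in 6.78% of optimal (4 of 59) and 2.25% of other noncoding-start windows (13 of 578; unadjusted exact p = 0.0632, adjusted exact p = 0.509, Fisher's exact test), the lowest unadjusted p of the 11. The promoter string TATAAA was in 20.3% of optimal (12 of 59) and 13.1% of other windows (76 of 578, adjusted exact p = 0.510), and in 13.3% of all candidate windows. Against 946 optimal distal peaks the shares were 5.08% and 8.25% for CAGGGCTG with up to 1 mismatch, 6.78% and 7.51% for AGGGNTG, 10.2% and 10.9% for CGATA, and 20.3% and 20.3% for TATAAA. Of the remaining strings, TCAGT was in 16.9% of optimal noncoding-start windows, 18.5% of other noncoding-start windows and 16.5% of all candidate windows. GAGAG, the string bound by GAGA factor, was in 5.08%, 11.4% and 10.6%. CACGTG (an E-box), the string CAGGTAG (bound by Zelda) and the string TATCGATA were in none of the 59 windows.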

How the data were processed

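ZIPIC-GFP ChIP-seq of whole embryos was used as 2 replicate candidate lists, a pooled candidate list and an optimal list, all on dm6. The deposited signal value is the authors' score per entry, whose scale is not stated, and each summit is a deposited offset. Per the deposited descriptions, lists were called against a control alignment and the optimal list came from an irreproducible discovery rate procedure; neither the caller nor the aligner is given in the sources used here. The dm3 lists, the control alignment and the signal tracks were not used here.

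Summits were placed on Ensembl release 115 starts, and sequence was read from the RefSeq Release 6 genome (dm6). Coordinates count from 1. Of 3304 genes of the noncoding RNA biotype, 485 are mature microRNAs. A replicate's signal is that of the entry holding the summit, the nearest by summit where several do. Shares were compared by two-sided Fisher's exact tests (scipy 1.17.1, Python 3.11.15), Benjamini-Hochberg adjusted within 3 class, 8 position or 11 string comparisons, with a threshold of 0.05, and intervals are exact Clopper-Pearson at 95%. The code was tested on simulated data. The members, strings and lists were chosen with earlier results of these data known. Named entries are the 25 strongest optimal members, the 5 weakest, the 5 strongest others and known noncoding RNAs. The remaining optimal members, named for the genes they overlap, for a string they hold, for lacking a replicate entry or for lying on X, were named after their values were seen. Alternatives were other distances, start definitions, windows and lists, and leaving out each replicate. The labels call the samples biological replicates; tests over entries do not measure the spread between embryo collections.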

Additional observations from a re-analysis of the deposited data

How the results depend on the processing

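Both differences in the optimal share, from distal and from coding-start entries, kept direction and call under each of the alternatives run. Some alternatives changed little by construction. Taking every transcript start of a coding gene gave the same counts, and keeping only the main chromosome arms left 21656 of 21657 distal entries. The position and string results were less stable. Requiring 250 bp to a start gave -2.56 points for the share found in both replicates and 0 strings passing against coding-start peaks, with the 4 strings still lower there. With 1000 bp, the antisense difference was -1.19 points and the X difference was 15.1. The share with a coding start just outside the limit differed by -1.19, but those distances began beyond 1000 bp. It is therefore not the share at 501 to 1000 bp. In the 1485 strongest optimal peaks the share found in both was -6.88 and the coding gene body difference -2.50. In the 1486 weakest, added after seeing the data, these were 24.9 for the share found in both, -0.0573 for antisense, -2.37 for the coding start outside 500 bp, and 0 passing strings. In 50 bp windows 2 strings passed. Within 200 bp of the start the optimal summits were 3.20 points more frequent. Without replicate 2 or 3 the share found in both becomes the share found in the remaining replicate, which differed by -8.13 and 11.5. Leaving them out gave -4.33 and 6.56 for antisense, -3.03 and 0.788 for the coding gene body, -0.533 and 4.81 for opposite-strand overlap and 10.1 and 12.2 for X. Apart from the counts of strings, these values are differences in percentage points. The cause was not tested. No paired analysis was possible because there was 1 group. A count of 59 optimal entries limits every comparison within them.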
